A study of Mus musculus with 8 samples.

Results

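The 10 Serpina genes followed here in mouse liver belong to a cluster of clade A serpin genes, and most of the 10 encode proteins secreted by hepatocytes. They were chosen by gene symbol: Serpina1a, Serpina1b, Serpina1c, Serpina1d, Serpina1e, Serpina3k, Serpina3m, Serpina3n, Serpina6 and the pseudogene Serpina4-ps1. Each of the 10 was found once in the deposited table of 24547 genes, which lists 26 genes with a Serpina symbol. The choice was made with results of the same treated against control comparison in view, so the values and differences of the members are given as a description, with no p-value.

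The study measured liver RNA of ICR mice, an outbred stock, by sequencing of poly-A RNA. In the treated group (4 libraries) a decoction of Psoraleae Fructus, a fruit drug of Chinese medicine from Psoralea corylifolia, was given into the stomach at high dose for 30 days, and in the control group (4 libraries) saline was given. The question is what the liver expresses after this preparation, in a series concerned with liver damage. The labels give no sex, age, dose by mass, hour of collection or animal for any library, so the p-values given for other genes measure only the spread between these libraries.

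Serpins inhibit proteases as bait: the protease cuts an exposed stretch of the serpin, the reactive centre loop, and is trapped by the refolding that follows. Serpina1 encodes alpha-1-antitrypsin, the main plasma inhibitor of neutrophil elastase, which mice carry as several tandem copies. The Serpina3 genes are the rodent relatives of alpha-1-antichymotrypsin, also in many copies, and Serpina3n is known as an inducible acute phase gene that inhibits granzyme B. Serpina6 encodes corticosteroid-binding globulin, a serpin that carries glucocorticoids in blood instead of inhibiting a protease. Serpina4-ps1 is annotated as an unprocessed pseudogene and bears the name of the kallistatin gene.

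All 10 members lie on chromosome 12 of GRCm38, within 767.7 kilobases from 103646630 to 104414329 (GENCODE M21). From the proximal end, Serpina6 runs from 103646630 to 103657212, Serpina1b from 103728156 to 103830373, Serpina1d from 103763594 to 103773592, Serpina1a from 103853589 to 103863562, Serpina1c from 103894926 to 103904887 and Serpina1e from 103946931 to 103958975, all on the minus strand. Serpina4-ps1 (104080649 to 104086724), Serpina3k (104338486 to 104346144), Serpina3m (104338486 to 104394257) and Serpina3n (104406729 to 104414329) follow on the plus strand. Another 30 annotated genes lie in the same span. Serpina3k and Serpina3m share 60 exon bases at their common start, and the antisense gene B430119L08Rik overlaps 429 exon bases of Serpina1c. The kit named in the labels, NEBNext Ultra RNA, does not mark strand, so reads from Serpina1c and from B430119L08Rik, which held 4 to 61 counts per library, cannot be told apart in that overlap.

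The Serpina1 copies of the reference genome are near-identical, and the stretch where they differ most is shown because reads from it can help separate them. The mice were of an outbred stock, and the copies and alleles that each animal carried were not measured. Their coding sequences have 1242 bases each and were 96.3% to 98.47% identical, Serpina1a and Serpina1c being closest with 19 differing bases. Of the 1242 positions 86 differed in at least 1 copy. The 60-base stretch with most differing positions held 18 of them, against a median of 4 over all such stretches. It lies at coding bases 1101 to 1160, in exon 5 of 5, toward the 3′ end where serpins encode the reactive centre loop. The sequences are from GENCODE M21 transcripts (GRCm38, coding strand, which is the minus strand of chromosome 12), and capitals mark positions that differ among the 5 copies.
Serpina1a: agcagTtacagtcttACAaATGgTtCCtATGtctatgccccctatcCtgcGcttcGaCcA
Serpina1b: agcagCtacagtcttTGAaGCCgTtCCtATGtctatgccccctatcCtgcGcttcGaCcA
Serpina1c: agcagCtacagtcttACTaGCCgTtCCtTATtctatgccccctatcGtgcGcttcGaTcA
Serpina1d: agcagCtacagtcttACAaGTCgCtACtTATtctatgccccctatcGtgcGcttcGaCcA
Serpina1e: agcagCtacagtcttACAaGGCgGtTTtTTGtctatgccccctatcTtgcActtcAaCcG
Within this stretch Serpina1c and Serpina1d differed at 5 bases, the fewest of any pair, and Serpina1e differed from Serpina1a and from Serpina1c at 12 each, the most.

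The most variable stretch of the Serpina3 members is shown in the same way, with Serpina3n the copy that differs most in it. Any relation of these bases to the levels of the genes was not tested. Serpina3k and Serpina3m were 91.61% identical over aligned coding bases, and Serpina3n was 82.73% and 85.2% identical to them. The most variable 60 bases again fell in exon 5 of 5, at coding bases 1103 to 1162 of 1257 in Serpina3k and 1097 to 1156 of 1257 in Serpina3m and Serpina3n, with 26 differing positions against a median of 9. They are given on the plus strand, from the same transcripts, with differing positions in capitals.
Serpina3k: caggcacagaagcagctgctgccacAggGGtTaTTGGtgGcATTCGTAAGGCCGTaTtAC
Serpina3m: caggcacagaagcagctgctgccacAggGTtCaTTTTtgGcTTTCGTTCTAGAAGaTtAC
Serpina3n: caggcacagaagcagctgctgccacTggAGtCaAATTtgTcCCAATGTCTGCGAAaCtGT
Serpina3k and Serpina3m differed at 13 of these bases, while Serpina3n differed from them at 23 and 19.

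Of the members, 6 had an entry in the RefSeq promoter table (GRCm38.p6, 250 bases before to 50 after the RefSeq gene start): Serpina1a to Serpina1e and Serpina3n. For Serpina1b and Serpina1e these promoters lie inside the GENCODE gene spans given above, since the starts differ between the annotations. The 100 bases around the letters GTTAAT, which are part of the consensus site of HNF1, a hepatocyte transcription factor, are shown for the Serpina1 copies because copies alike in nearly all of these bases stood at different levels. GTTAAT is in capitals, and the strand is that of the genes.
Serpina1a: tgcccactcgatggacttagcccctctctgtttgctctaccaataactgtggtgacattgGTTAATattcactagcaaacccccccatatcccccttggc
Serpina1b: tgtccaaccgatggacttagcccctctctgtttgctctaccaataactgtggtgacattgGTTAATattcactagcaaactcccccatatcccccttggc
Serpina1c: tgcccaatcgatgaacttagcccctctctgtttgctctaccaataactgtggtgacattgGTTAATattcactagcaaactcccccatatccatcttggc
Serpina1d: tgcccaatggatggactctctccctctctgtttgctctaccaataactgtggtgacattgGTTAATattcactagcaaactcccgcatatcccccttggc
Serpina1e: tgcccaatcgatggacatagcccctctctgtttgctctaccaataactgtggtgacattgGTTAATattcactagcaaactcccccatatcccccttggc
Serpina1a lies here at chr12:103863601-103863700 and Serpina1b at chr12:103738176-103738275, both on the minus strand. Any pair of these 100-base stretches differed at 3 to 9 positions. On either strand GTTAAT was present once in each of the 5 Serpina1 promoters, not in that of Serpina3n, and in 7.1% of 32851 promoters of the same length. The STAT letters TTCNNNGAA were in none of the 6 promoters and in 8.3% of all promoters.

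Because the copies resemble each other, the share of each transcript that occurs in no other annotated transcript was computed. For windows of 100 bases it was 30.67% for Serpina1c, 39.02% for Serpina1a, 70.66% for Serpina1d, 73.59% for Serpina1b and 81.77% for Serpina1e. It was 93.91% for Serpina3m, 95.15% for Serpina3k and 99.8% for Serpina3n, and 100% for Serpina6 and Serpina4-ps1. The read length and the treatment of reads with several positions were not given in the sources used here, so counts of Serpina1a and Serpina1c in particular are uncertain, and sums over copies are given beside them. The pseudogene Gm8893 at 103817856 to 103822243 also shares windows with all 5 Serpina1 copies and held 1718 to 7728 counts per library, at 252.3 CPM on average in controls and 300.6 CPM in treated libraries.

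**Figure D1:**
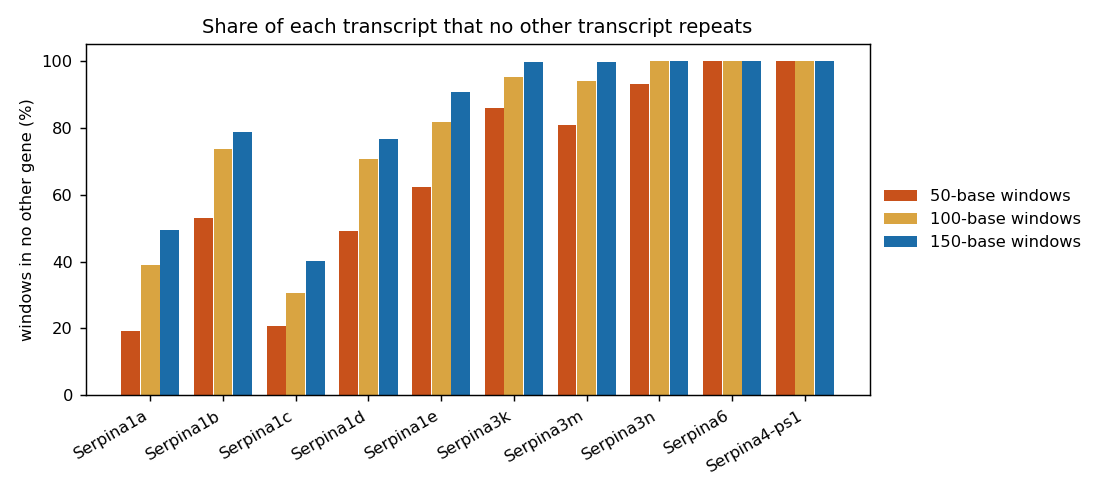
Bars give, for each of the 10 genes, the percentage of all windows of 50, 100 or 150 bases along 1 reference transcript that occur in no transcript of another gene. Serpina1a and Serpina1c are lowest at every window length (19.15% and 20.73% at 50 bases), and Serpina6 and Serpina4-ps1 are at 100%.

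Library totals ran from 15864399 to 20159132 counts, and levels are given as CPM, counts scaled to a common library total after TMM normalization. Controls differed more from each other than treated libraries did, with a chi-square per degree of freedom over genes of 77.8 to 186 between control pairs and 32.3 to 63.5 between treated pairs. The highest values involved control 2 or control 4. The liver label was checked with hepatocyte markers: 10 listed genes summed to 117000 to 176300 CPM in controls and 149100 to 166800 CPM in treated libraries, and none passed the edgeR test with Benjamini-Hochberg adjustment (2 at an unadjusted p under 0.05). Summed markers of Kupffer cells ran from 667.6 to 1637 CPM in controls and 455.1 to 890.5 CPM in treated libraries (2 of 12 lower), those of T, NK and B cells from 32.92 to 74.79 and 23.12 to 26.26 CPM (3 of 7 tested lower), those of stellate cells from 461.5 to 588.7 and 377.9 to 484.5 CPM (1 of 10 lower) and those of sinusoidal endothelium from 439.0 to 598.7 and 308.4 to 462.1 CPM (2 of 10 lower). Neutrophil and cholangiocyte markers had 0 of 4 tested genes past the edgeR test each (1 and 0 at an unadjusted p under 0.05), with sums of 6.868 to 19.65 and 30.72 to 46.95 CPM over all libraries. Adipocyte and pancreas acinar markers summed to at most 0.42 CPM, with Plin1 and Retn at 0. Over all 12861 tested genes 3.75% were called lower. After a correction for the GC content and length of genes, 0 Kupffer cell markers were called lower. For T, NK and B cells, stellate cells and sinusoidal endothelium it was 1 marker each, where 190 of the 12861 genes were called lower. In bulk tissue fewer cells of a type and less RNA per cell cannot be told apart, and the part of these markers in the results below was not tested. The Y-linked genes Ddx3y, Uty, Kdm5d and Eif2s3y had 0 counts in all 8 libraries, which allows up to 3 counts each per library. Xist, the other gene of the sex marker list, ran from 354.2 to 874.4 CPM in controls and from 224 to 408.7 CPM in treated libraries.

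Per length, Serpina3k was the most abundant member in controls, at 3433 ± 582.5 FPKM (fragments scaled to gene length and library total; SD, n = 4 per group throughout), followed by Serpina1b at 1599 ± 466.0 FPKM. Next came Serpina1a at 874.3 ± 131.2, Serpina3n at 648.6 ± 173.4 and Serpina3m at 477.7 ± 108.6 FPKM, each overlapping its neighbour in this order over the 4 libraries. Serpina1c stood at 210.2 ± 29.9, Serpina1d at 140.1 ± 75.9, Serpina6 at 101.6 ± 114.2, Serpina4-ps1 at 40.76 ± 27.5 and Serpina1e at 17.73 ± 4.08 FPKM, and here too each overlapped the next. The gaps between Serpina3k and Serpina1b, between Serpina1b and Serpina1a and between Serpina3m and Serpina1c were not bridged by any control library. In treated libraries Serpina3k, at 1776 ± 590.0 FPKM, overlapped Serpina1b at 1462 ± 201.0 FPKM, Serpina3n (557.1 ± 114.7) stood above Serpina1a (507.6 ± 112.5) with overlap, and Serpina4-ps1 was last at 4.338 ± 4.12 FPKM.

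Together the 10 genes took 1.543% ± 0.0534 of all counts in controls and 1.049% ± 0.211 in treated libraries. Their summed level was 16440, 14310, 14620 and 15480 CPM in controls 1 to 4 and 8286, 9591, 11130 and 13690 CPM in treated libraries 1 to 4. Every treated library was below every control, with treated 4 nearest to them. The log2 difference of the sum (treated minus control, as all differences below) was -0.53 (SE 0.16). By single genes, 8 of the 10 had a lower mean in treated libraries and 2 a higher one, and the median log2 difference was -0.62 over the members and -0.037 over all 12861 tested genes. All 10 passed the filter on low counts. In the edgeR fit 2 members met the call at an adjusted p under 0.05, both lower, where 9.21% of all tested genes met it, 3.75% as lower and 5.46% as higher. This count of members was 0 without treated 1 or without treated 3, 1 without control 2, control 3 or treated 2, 4 without control 4 or with DESeq2, and 1 after a correction for the GC content and length of genes. The ranges of the groups did not overlap for 4 members, all lower in treated libraries, and for 18.9% of all tested genes (8.7% lower, 10.2% higher). Nothing is read from these counts, since the members were chosen on this comparison.

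**Figure D2:**
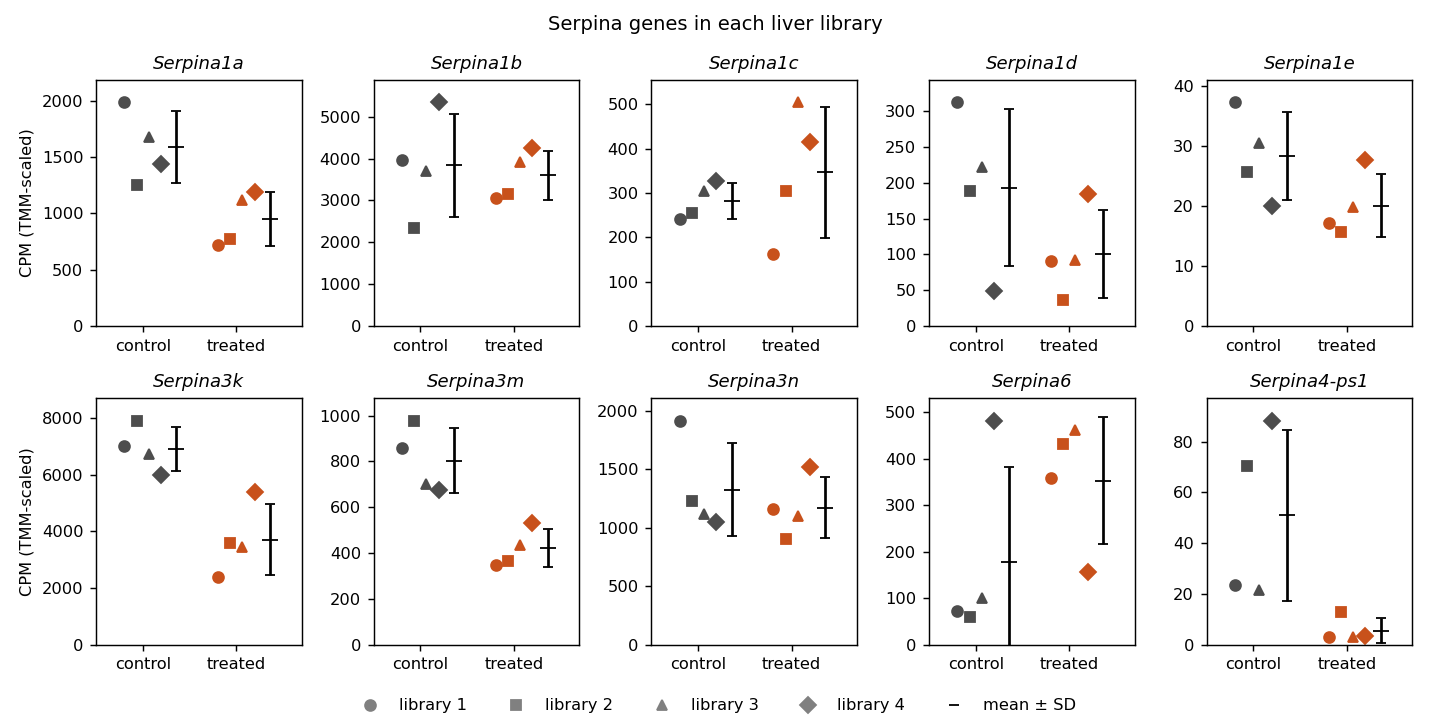
Each panel gives the level of 1 gene (CPM, linear axis from 0) in the 4 control and 4 treated libraries, with a symbol per library and the mean ± SD of each group beside them, cut at 0 for Serpina6 in controls. Treated values lie below all controls for Serpina1a, Serpina3k, Serpina3m and Serpina4-ps1, and control 4 (481.8 CPM) and treated 4 (157.1 CPM) of Serpina6 lie far from their own groups.

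Among the Serpina1 copies only Serpina1a had groups that did not overlap. Serpina1a held 1986, 1255, 1679 and 1433 CPM in controls 1 to 4 and 719.7, 771.4, 1114 and 1191 CPM in treated libraries 1 to 4. The nearest values were 1255 in control 2 and 1191 in treated 4, so the gap between the groups was small beside the spread within them. The mean went from 1588 ± 317.1 to 949.0 ± 238.0 CPM, a log2 difference of -0.74 (SE 0.22).

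Serpina1b, the copy with most counts, held 3976, 2334, 3704 and 5349 CPM in controls and 3053, 3146, 3929 and 4256 CPM in treated libraries. The controls enclosed all treated values, with control 2 lowest and control 4 highest of the 8. Its log2 difference was -0.10 (SE 0.25), -0.26 without control 2 and 0.11 without control 4. It was -0.17 after the correction for GC content and length.

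Serpina1c held 241.5, 254.1, 303.6 and 327.9 CPM in controls and 161.7, 305.0, 504.7 and 414.2 CPM in treated libraries. It was the Serpina1 copy with a higher mean in treated libraries, though treated 1 was the lowest of all 8 and the log2 difference of 0.30 was about the size of its SE of 0.30. It was 0.062 without treated 3, 0.55 without treated 1 and 0.10 after the correction for GC content and length. Serpina1c is also the copy with the fewest windows of its own.

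Serpina1d held 313, 188.5, 222.8 and 48.6 CPM in controls and 90.19, 36.91, 91.74 and 185.1 CPM in treated libraries. Control 4 fell within the treated values and treated 4 within reach of the controls, so the groups overlapped. The log2 difference was -0.94 (SE 0.62), and with a library left out it ran from -0.60 without control 1 to -1.40 without treated 4 (-1.26 without control 4).

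Serpina1e, the least abundant copy, held 37.27, 25.72, 30.45 and 19.97 CPM in controls and 17.13, 15.7, 19.83 and 27.56 CPM in treated libraries. Treated 4 again lay among the controls. Its log2 difference was -0.50 (SE 0.22).

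Summed over the 5 copies, which does not depend on how counted reads were split between them, the level was 6554, 4057, 5940 and 7179 CPM in controls and 4041, 4275, 5659 and 6074 CPM in treated libraries. These ranges overlapped almost fully, with control 2 beside the lowest treated library, and the log2 difference was -0.23 (SE 0.23). It was -0.40 without control 2, -0.13 without control 4, -0.12 without treated 1 and -0.15 without treated 2. With the pseudogene Gm8893 added it was -0.21 (SE 0.23).

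The share of this sum that each copy took is free of the library scaling. Serpina1a took 27.37% ± 5.07 of the Serpina1 counts in controls and 18.79% ± 1.0 in treated libraries, with no overlap. Controls 1 to 3 stood at 28.26% to 30.94%, but control 4 stood at 19.96% (95% Wilson interval 19.75% to 20.18%), next to the highest treated library at 19.69% (19.44% to 19.95%), intervals which cover counting error only. Serpina1b took 63.77% ± 7.44 and 72.16% ± 2.9, where control 4 at 74.51% lay among the treated libraries. Serpina1d took 3.463% ± 1.91 and 1.941% ± 0.926, with control 4 lowest of all at 0.677%. For Serpina1c, at 4.568% in control 4, that library lay among controls 1 to 3 (3.685% to 6.264%). It was above treated 1 (4%) and below treated 2 to 4 (6.818% to 8.918%), so it lay within the range of both groups.

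**Figure D3:**
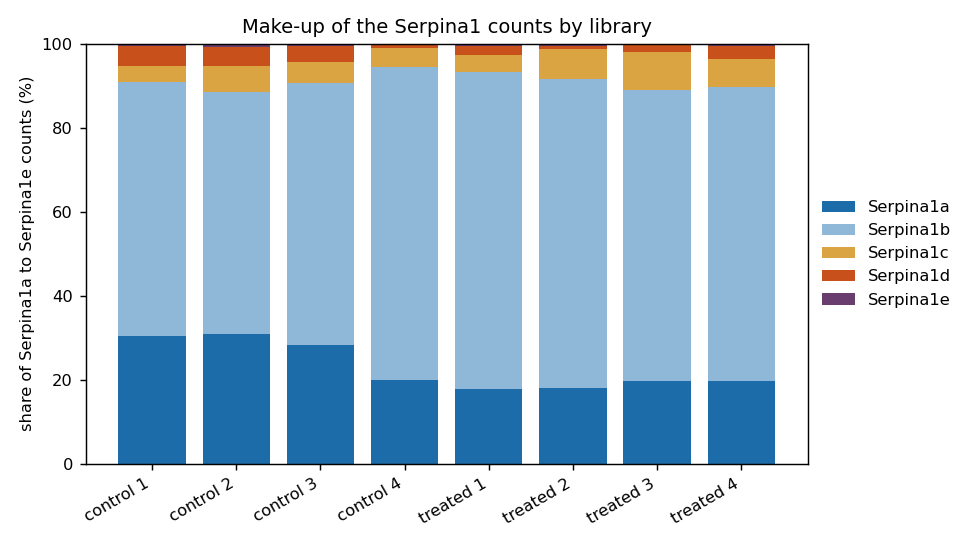
Stacked bars give the percentage of the summed Serpina1a to Serpina1e counts that each copy took in each of the 8 libraries, from 0 to 100%. The Serpina1a part is 28.26% to 30.94% in controls 1 to 3, 19.96% in control 4 and 17.81% to 19.69% in the treated libraries, and Serpina1e, at most 0.634%, is barely visible.

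Of the Serpina3 members, Serpina3k held 7012, 7920, 6744 and 6003 CPM in controls and 2375, 3604, 3464 and 5405 CPM in treated libraries. All treated values lay below all controls, with treated 4 close to control 4. The mean went from 6920 ± 791.7 to 3712 ± 1255 CPM and the log2 difference was -0.90 (SE 0.25).

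The annotated span of Serpina3m contains that of Serpina3k, and the genes share 60 exon bases. Serpina3m held 859.5, 978.2, 700.4 and 676.6 CPM in controls and 348.5, 366.1, 436.5 and 530.7 CPM in treated libraries. The groups did not overlap, and the libraries stood in a similar order to those of Serpina3k, with control 2 highest in both and treated 1 lowest in both. The log2 difference of Serpina3m was -0.93 (SE 0.19).

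Serpina3n, the acute phase member, held 1915, 1226, 1114 and 1047 CPM in controls and 1158, 899.5, 1102 and 1522 CPM in treated libraries. The groups overlapped, with control 1 highest and treated 2 lowest, and the log2 difference of -0.18 (SE 0.24) was smaller than its SE. It was 0.054 without control 1, -0.053 without treated 2, -0.27 without control 4 and -0.33 without treated 4. As a share of the counts of the 3 Serpina3 members, Serpina3n took 14.56% ± 3.39 in controls and 22.69% ± 4.99 in treated libraries, with overlap.

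The 3 Serpina3 members summed to 9787, 10120, 8558 and 7727 CPM in controls and 3882, 4870, 5002 and 7457 CPM in treated libraries. The groups did not overlap, and the log2 difference was -0.80 (SE 0.22), most of it from Serpina3k, which took 76.59% ± 3.33 of these counts in controls.

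Serpina6, the corticosteroid carrier, held 72.38, 59.14, 100.9 and 481.8 CPM in controls 1 to 4 and 359.1, 432.4, 460.9 and 157.1 CPM in treated libraries 1 to 4. Controls 1 to 3 lay below every treated library, whereas control 4 was the highest of all 8. The log2 difference was 0.98 (SE 0.74) with all libraries and 2.19 without control 4. In the same libraries Dbp, an output gene of the circadian clock that was picked for its values, held 35.6 CPM in control 4, 0.155 to 2.041 CPM in controls 1 to 3 and 37.94 to 79.27 CPM in treated libraries. The hour of collection is not in the labels, and the part of such a difference in the Serpina6 result was not tested.

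Serpina4-ps1 held 23.41, 70.35, 21.48 and 88.29 CPM in controls and 2.897, 13.01, 2.911 and 3.281 CPM in treated libraries. The groups did not overlap, and controls 2 and 4 were about alike and well above controls 1 and 3. The mean went from 50.88 ± 33.6 to 5.524 ± 4.99 CPM, the largest log2 difference of the 10 at -3.21 (SE 0.74). Without controls 2 and 4 it was -2.02. Its counts ran from 48 to 1684 per library, and no window of 50 bases of its transcript occurred in another annotated transcript.

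**Figure D4:**
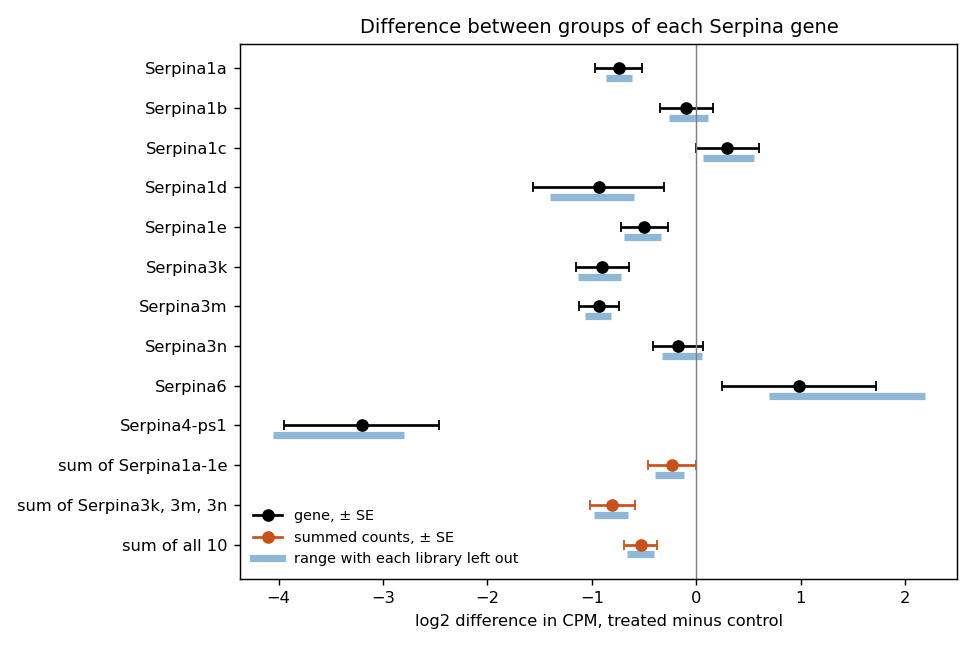
Points give the log2 difference in CPM (treated minus control) of each gene from the edgeR fit and of 3 sums of counts, with the SE as bars, and thick lines give the range over 8 fits with a library left out. Serpina4-ps1 (-3.21) lies farthest from 0, Serpina6 and Serpina1c lie above 0, and the ranges of Serpina1b and Serpina3n cross 0.

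The genes whose log2 CPM most resembled that of 4 members over the 8 libraries were found by Pearson correlation, as a description across libraries that include both groups. For Serpina6 they were Rcbtb1 (0.99), Tmem150a (0.98) and Cyp1a2 (0.98), a P450 of caffeine and arylamine oxidation. Cyp1a2 held 245.2, 199.0, 270.7 and 453.3 CPM in controls and 399.2, 440.1, 464.7 and 272.8 CPM in treated libraries, again with control 4 high and treated 4 low. For Serpina3k they were Rfwd3 (0.98), Gbf1 (0.97), which acts in Golgi traffic, and Mid1 (0.97). For Serpina1a they were Eprs (0.97), a tRNA synthetase, Hykk (0.96) and the phosphatase gene Ptpra (0.96), and for Serpina3n they were Fry, Kansl3 and Klhl3 (0.94 each).

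The other genes around these serpins were taken from 9 lists and tested in the edgeR fit over all 12861 genes with Benjamini-Hochberg adjustment, by which 9.21% of all tested genes were called (5.46% higher, 3.75% lower). Of secreted serpins outside the members 2 of 16 tested genes fell and none rose, with a median log2 difference of -0.18 against -0.037 over all genes. Serpina3c fell from 2.085 ± 0.981 to 0.5177 ± 0.226 CPM, a log2 difference of -1.998 (SE 0.47, adjusted p = 0.0314) and the pseudogene Serpina3h from 10.16 ± 4.33 to 3.875 ± 1.15 CPM, a log2 difference of -1.39 (SE 0.36, adjusted p = 0.0437). Both share windows with Serpina3 members, and each was called in 1 of 8 fits with a library left out, that without control 4. After the correction for GC content and length Serpina3c was at -2.05 (adjusted p = 0.0448) and Serpina3h at -1.55 (adjusted p = 0.0582). Of 6 tested intracellular and chaperone serpins none was called (1 at an unadjusted p under 0.05, and 0 to 1 called in the fits with a library left out), with Serpinb6a at 20.16 ± 4.3 against 16.72 ± 3.08 CPM and Serpinb9, the granzyme B inhibitor of lymphocytes, at 16.72 ± 8.94 against 9.436 ± 1.14 CPM.

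Among proteases that secreted serpins act on, 1 of 18 tested genes rose and none fell, where 5.46% of all genes rose and 3.75% fell. The median log2 difference of this list was 0.40. In either direction, 10 of the 18 had an unadjusted p under 0.05 in the edgeR test. With DESeq2 5 genes of this list were called, where 2215 of 12861 tested genes were. With a library left out 0 to 7 were called. Proc, the anticoagulant protein C, rose from 429.9 ± 55.8 to 642.8 ± 54.5 CPM, a log2 difference of 0.58 (SE 0.15, adjusted p = 0.0395). It was higher in 4 of 4 treated libraries than in any control. The call of Proc was lost after the same correction (log2 0.39, adjusted p = 0.129).

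Of 17 tested transcription factors of hepatocyte serpin genes 2 rose and 1 fell, where 9.21% of all genes were called. The median log2 difference of this list was 0.12. Cebpa, a factor of the differentiated hepatocyte, rose from 275.4 ± 68.6 to 515.5 ± 86.1 CPM, a log2 difference of 0.90 (SE 0.20, adjusted p = 0.0262) and Foxa3 rose from 47.45 ± 9.72 to 82.44 ± 14.8 CPM, a log2 difference of 0.80 (SE 0.18, adjusted p = 0.0281). After the length and GC correction the log2 difference of Cebpa was 0.48 (adjusted p = 0.171) and that of Foxa3 was 0.64 (adjusted p = 0.0827), so both calls were lost.

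Stat3, which carries the interleukin 6 signal to acute phase genes, held 191.1, 173.8, 193.2 and 122.3 CPM in controls and 94.19, 99.07, 113.5 and 93.72 CPM in treated libraries. It fell in treated libraries without overlap (log2 -0.76, SE 0.16, adjusted p = 0.0216), and after the correction for length and GC content (log2 -0.72, adjusted p = 0.0327). With Nfkb1 (log2 -0.61, SE 0.14, adjusted p = 0.0299) and Il6st, the signalling chain of the interleukin 6 receptor (log2 -0.57, SE 0.14, adjusted p = 0.0375), 3 of 16 genes of this pathway fell and none rose, where 3.75% of all genes fell, at a median log2 difference of -0.37. After the correction Nfkb1 was at -0.39 (adjusted p = 0.129) and Il6st at -0.42 (adjusted p = 0.0871), and both calls were lost.

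Of 25 tested acute phase plasma proteins 2 fell and none rose, where 3.75% of all genes fell and 9.21% were called either way. The median log2 difference of this list was -0.40. In either direction, 9 of the 25 had an unadjusted p under 0.05 in the edgeR test. With DESeq2 9 genes of this list were called, where 2215 of 12861 tested genes were. With a library left out 0 to 5 were called. Cd14, a lipopolysaccharide receptor also made by macrophages, fell from 14.14 ± 6.56 to 5.137 ± 1.15 CPM, a log2 difference of -1.46 (SE 0.34, adjusted p = 0.0314, and 0.0419 after the correction). Fga, a fibrinogen chain, fell by 0.62 on the log2 scale (SE 0.16, adjusted p = 0.0429) and was lost after the correction (log2 -0.63, adjusted p = 0.0564).

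Of 20 glucocorticoid receptor genes and targets 1 fell, Sult1e1, the oestrogen sulfotransferase, from 4.718 ± 2.69 to 0.5043 ± 0.499 CPM, a log2 difference of -3.22 (SE 0.82, adjusted p = 0.044), a call lost after the correction at a log2 difference of -3.18 (adjusted p = 0.0686). Of 18 growth hormone and STAT5 genes 2 fell, both feedback inhibitors of cytokine signalling. Beside the counts of both lists, 3.75% of all tested genes fell and 9.21% were called either way. Socs2 held 41.47, 50.05, 49.1 and 42.1 CPM in controls and 11.99, 30.88, 12.85 and 12.29 CPM in treated libraries (log2 -1.43, SE 0.31, adjusted p = 0.0265), and Cish fell from 7.83 ± 2.8 to 2.43 ± 1.56 CPM, a log2 difference of -1.69 (SE 0.43, adjusted p = 0.0402). After the correction Socs2 was at -1.26 (adjusted p = 0.0505) and Cish at -1.72 (adjusted p = 0.056). The median log2 differences of these lists were 0.071 and -0.065.

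Of 34 genes of endoplasmic reticulum export, quality control and degradation, the route by which antitrypsin leaves the cell or is destroyed, 1 rose and 1 fell, a share below the 9.21% called over all genes, at a median log2 difference of -0.12. Fkbp2, a prolyl isomerase, rose from 23.26 ± 4.9 to 48.29 ± 9.69 CPM, a log2 difference of 1.05 (SE 0.18, adjusted p = 0.0122), but stood at 0.26 after the correction (adjusted p = 0.385). Uggt1, which tests the folding of glycoproteins, fell from 90.06 ± 14.7 to 60.97 ± 1.42 CPM, a log2 difference of -0.56 (SE 0.13, adjusted p = 0.0283) and was lost after the correction (log2 -0.44, adjusted p = 0.0992).

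Of the 15 distinct genes called on these lists, Fkbp2 was called in all 8 fits with a library left out and the others in 1 to 4 of 8. All but Fkbp2 lost the call without treated 3, and all but Fkbp2 and Uggt1 without control 3. Without treated 3 the lists held 1 call, and without control 4 they held 35.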

How the data were processed

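Per the file headers, the deposited table holds raw counts per gene and FPKM for each library. The genome build GRCm38 and the tools DESeq2 1.32.0, HTSeq 0.13.5 and HISAT2 are named in the submitters' processing notes, with no role stated. The deposited FPKM equal counts over gene length and library total, as checked on the values. Annotation release, strand setting and read length were not given in the sources used here. Differences in counts were fitted by edgeR 4.0.16 under R 4.3.3 (filterByExpr at a minimum count of 10, TMM, robust quasi-likelihood F test, group as the only term, adjusted p under 0.05), which left 12861 genes. The fit was also run on simulated counts with equal dispersion in both groups. Controls here differed more from each other than treated libraries did, so nothing is read from that run. The SE was derived from F. The correction for length and GC content used, per library, offsets from natural splines with 5 degrees of freedom on each. Sums of copies used the same scaling, with the SE from the spread between libraries.

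The members and lists were chosen with earlier results of these data known. From each list up to 4 called genes of smallest adjusted p are named, or the 2 most abundant where none was called. For 4 members the 3 most similar genes are named, leaving out predicted-gene symbols. Alternatives were DESeq2 1.42.0, limma 3.58.1 on FPKM (log2, pseudocount 1 or 0.1, genes averaging 0.5 or more), other scaling, no filter, a replicate block, the length and GC correction and leaving out each library. The fits without controls 2 and 4 were added after seeing the data.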

Additional observations from a re-analysis of the deposited data

Results flagged for a closer look

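In groups of 4 libraries, 7 values stood apart from the other 3 of their group by Dixon's ratio, among 78 groups looked at. Chance gives about 1 in 20 for independent groups of normally spread values. The groups here reuse the same 8 libraries and include shares of the same total and genes named because they were called. No excess over chance can be read from them. Serpina6 was at 481.8 CPM in control 4 against 59.14 to 100.9 CPM in the other controls. Serpina4-ps1 was at 13.01 CPM in treated 2 against 2.897 to 3.281 CPM in the other treated libraries. Serpina3k took 71.65% of the Serpina3 counts in control 1 (95% Wilson interval 71.43% to 71.87%) against 77.69% to 78.8% in the other controls.

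Among the genes named from the lists, Proc was at 724.1 CPM in treated 3 (610.5 to 624.4 CPM in the others), Il6st at 232.2 CPM in control 4 (318.7 to 327.2 CPM), Socs2 at 30.88 CPM in treated 2 (11.99 to 12.85 CPM) and Fkbp2 at 30.62 CPM in control 4 (20.76 to 20.85 CPM). Treated 2 was thus the outlying library for both Serpina4-ps1 and Socs2, and control 4 for Serpina6, Il6st and Fkbp2.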

How the results depend on the processing

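The log2 differences of the 10 members and of their 3 sums moved by less than the spread between libraries under every alternative run, other than Serpina6, at 2.19 without control 4 (0.70 to 2.19 with a library left out), and Serpina4-ps1, at -2.02 without controls 2 and 4. The sign changed for Serpina1b without control 4 (0.11) and for Serpina3n without control 1 (0.054). The count of all genes called (1184) was 2215 with DESeq2 and 578 after the length and GC correction, and 183 to 2330 with a library left out. Called genes on the 9 lists (15) were 37 with DESeq2, 3 after the correction, and 1 to 35 with a library left out. The cause of these moves was not tested. Fewer libraries also leave fewer residual degrees of freedom. With the replicate block 944 genes and 13 listed genes were called, without Serpina3c, Serpina3h, Proc, Il6st, Fga, Sult1e1 and Cish, and the difference of Serpina6 was 1.64. In this balanced layout the block cannot move the differences of the sums. The numbers are not stated to pair animals, and deviations of same-numbered libraries correlated at -0.012 to 0.18. The Serpina1 and Serpina3 sums were at -0.32 and -0.85 after the length and GC correction. DESeq2 was not run on sums. Depth does not limit the members, which held at least 48 counts in every library.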

Other observations

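Serpina genes of the same cluster that are no members, chosen after their values were seen, also stood apart in single control libraries. Serpina12, a secreted serpin known as vaspin, was at 73.34 CPM in control 4 and at 2.169 to 5.777 CPM in the other controls, against 2.747 to 6.064 CPM in treated libraries. Serpina3g, at 288.5 CPM in control 2, was at 7.235 to 40.5 CPM in the other controls and at 3.818 to 5.244 CPM in treated libraries, and Serpina3f was at 88.48 CPM in control 2 and 3.513 to 14.88 CPM in the other controls. Control 2 also held most Cd74, the invariant chain of antigen-presenting cells, at 856.4 CPM against 144.7 to 345.3 CPM in the other controls. Every treated library was below every control for Cd74, at 32.16 to 51.73 CPM. Unlike these serpins, Cd74 was called lower by edgeR (log2 -3.155, SE 0.61, adjusted p = 0.0236, and 0.0315 after the length and GC correction). None of Serpina12, Serpina3g and Serpina3f was called by edgeR (adjusted p = 0.286, 0.0635 and 0.105).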
